A study of Mus musculus with 9 samples.

Results

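The baseline profile of wild-type (WT) synovial fibroblasts (SFs) was read from the 3 WT libraries of a series of 9 SF libraries, chosen by their genotype label. The other 6 libraries, from hTNFtg mice, were not analysed here. The WT SFs were isolated from mice of the CBA C57BL/6J background without the hTNFtg transgene, aged 8 weeks, from their ankle joints. Joints were digested with collagenase IV, the cells were grown in culture, and CD45+ cells were depleted at passage 1. The labels give no treatment for these libraries, and the methods describe vehicle for 48 hours. The methods call the 3 libraries biological replicates, and neither source says how many animals went into each. Cultured and depleted cells are a limit of the model, since the makeup of the joint itself is not kept.

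SFs are the mesenchymal cells of the joint lining and of the tissue beneath it. They secrete the collagens, glycoproteins and proteoglycans of the synovial matrix, the enzymes that remodel it, and the lubricant of the joint fluid. Podoplanin (Pdpn) and Thy1 are surface proteins commonly used to recognise them.

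Libraries were made by 3′ mRNA sequencing, which reads the end of each transcript. A long and a short transcript then give about the same number of reads per molecule, so levels were compared between genes without division by length. Values are normalized counts, meaning reads per gene after scaling by the authors, and errors are the SD of the 3 libraries (n = 3). No group was compared with another, so no test was run. The libraries summed to 4378016, 4472323 and 4335872 normalized counts in replicates 1, 2 and 3. These correspond to about 4521856, 5030225 and 6486166 reads assigned to genes, as far as the spacing of low values shows. The floor used for detection was 3 reads, which stood at 2.905, 2.667 and 2.005 normalized counts. Replicate 1 stood apart from the others. Its median absolute difference from replicate 3 was 0.42 on the log2 scale and from replicate 2 it was 0.32, against 0.25 between replicates 2 and 3, over the 5929 genes with a mean of at least 100. For that reason many values are given per library.

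The label was first set against marker genes. Pdpn stood at 941, 982 and 852 normalized counts in replicates 1 to 3, and Thy1 at 414, 403 and 354. The coefficient of variation (CV), the SD as a share of the mean, was 7.18% for Pdpn and 8.18% for Thy1. All 17 genes of a general fibroblast list were above 0 in every library, and 15 averaged 100 or more. Pdgfrb, the receptor of platelet-derived growth factor B, stood at 1172, 847 and 787, and the related receptor Pdgfra at 217, 243 and 184. Cdh11, the cadherin that joins SFs to each other, was at 405, 332 and 384. Fap, a protease of activated fibroblasts, was low, at 25, 35 and 20.

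Markers of the SF layers were unequal in level. Prg4, which encodes lubricin, stood at 299, 375 and 321, and Col22a1 at 288, 266 and 249. The other lining markers were low, with Hbegf at 40, 32 and 37, Cd55 at 8, 8 and 15, Clic5 at 2, 3 and 2, and Tmem196 at 0 in every library. Among sublining markers, the chemokine gene Cxcl12 reached 12054, 8959 and 11906, and the WNT antagonist gene Sfrp1 was even, at 1206, 1211 and 1231. Dkk3 stood at 756, 948 and 1225. Less even were Ly6a at 3767, 1034 and 877, Ly6c1 at 477, 111 and 111, Clec3b at 105, 10 and 99, and Col15a1 at 1, 17 and 29. Cd34 was at 69, 68 and 113, Pi16 at 1, 3 and 2, and Dpp4 at 0. The limb position genes Hoxa11 (513, 413 and 364), Hoxa9 (329, 193 and 277) and Hoxd13 (152, 128 and 122) were detected in each library, as were the hindlimb regulators Tbx4 (61, 42 and 36) and Pitx1 (29, 34 and 41). Of the 25 genes of the limb position list, 20 were above 0 in every library and 4 averaged 100 or more. Tbx5 was also above 0 in each, at 5, 3 and 4, whereas Hoxc10 was at 0, 9 and 11 and Isl1 at 0, 1 and 5.

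Other cell types of the joint left few counts, with exceptions. The 18 macrophage markers hold 19 entries in the table, of which 13 were above 0 in every library, and their summed level was 251, 1247 and 495 normalized counts, or 0.00573%, 0.0279% and 0.0114% of the library. Replicate 2 was the highest library for 15 of the 19 entries, among them Laptm5 (33, 405 and 76), Lyz2 (43, 277 and 95), Cd68 (15, 78 and 20) and Tyrobp (7, 60 and 6). Itgam is entered more than once, and some of the 15 lie near the floor. The same share over all genes was not computed, so nothing is read from this count. The complement gene C1qa was close in replicates 2 and 3, at 8, 115 and 106. Cx3cr1 (6, 14 and 23) and Fcgr1 (0, 5 and 9) were highest in replicate 3. In a bulk library fewer cells of a type and less RNA per cell cannot be told apart. Acp5, the acid phosphatase of osteoclasts, was also highest in replicate 2, at 7, 96 and 3, and so was Ctsk, which fibroblasts also make, at 163, 234 and 152. Ptprc, which encodes the CD45 used for the depletion, stood at 0, 3 and 0, and Cd163 at 0. The lymphoid markers summed to 28, 10 and 16, led by Cd3d (14, 8 and 10). Cd3e, Cd8a, Cd79a and Cd79b were at 0 in every library, as were Hbb-bs, Hbb-bt and Alas2 of erythroid cells, Ckm and Myog of muscle, and Myh11 of smooth muscle. As far as the spacing of low values shows, a value of 0 stands for no counted read. At this depth none of these zeros shows that the gene is absent. Endothelial Pecam1 (1, 0 and 1) and Cdh5 (0, 1 and 0) were near 0.

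In some lists a single gene was high. Elane, the elastase of neutrophils, stood at 1024, 788 and 695, while Mpo, Ltf, Ngp, Ly6g and S100a9 were among the 8 of the 11 genes of that list at 0 in every library, and Camp was at 15, 20 and 9. Egfl7 stood at 280, 287 and 295, while the other endothelial markers were at 6 or below in every library. Fabp4 was at 443, 408 and 359 with Lep and Retn at 0. Several genes of the skeletal, tendon and mural lists were higher. Sox9, a regulator of cartilage that is also found in other mesenchymal cells, stood at 1160, 1761 and 1939 and Alpl at 983, 441 and 710, whereas Col2a1 was at 60, 51 and 94, Acan at 16, 16 and 5, and Bglap at 1, 2 and 5. Of the osteoblast list, Runx2 also stood at 120, 113 and 128, Sp7 at 65, 80 and 90, and Ibsp at 76, 44 and 26. Its members Phex (2, 4 and 26), Bglap2 (1, 8 and 2) and Bglap3 (4, 7 and 4) were low, and Dmp1 was at 0. Of the chondrocyte list, Comp averaged 5671 and Col11a1 284. All 5 tenocyte markers were above 0 in every library, and the list held 0.187% ± 0.0224 of the counts, most of it Fmod (6915, 4942 and 5547) and Thbs4 (1871, 2196 and 2010), both genes of the matrix. Tnmd, tenomodulin of tendon, stood at 367, 304 and 144 and Scx at 32, 37 and 51. Of the pericyte and smooth muscle list, Acta2 averaged 2380, Higd1b 166, Cspg4 114 and Mcam 103. The other members were lower, with Notch3 at 59.3, Rgs5 at 27.3, Abcc9 at 9.67, Des at 3.67, and Kcnj8 and Myh11 at 0. The plot of marker levels shows Col1a1 farthest to the right and the lymphoid, endothelial and erythroid genes at the left edge.

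**Figure D1:**
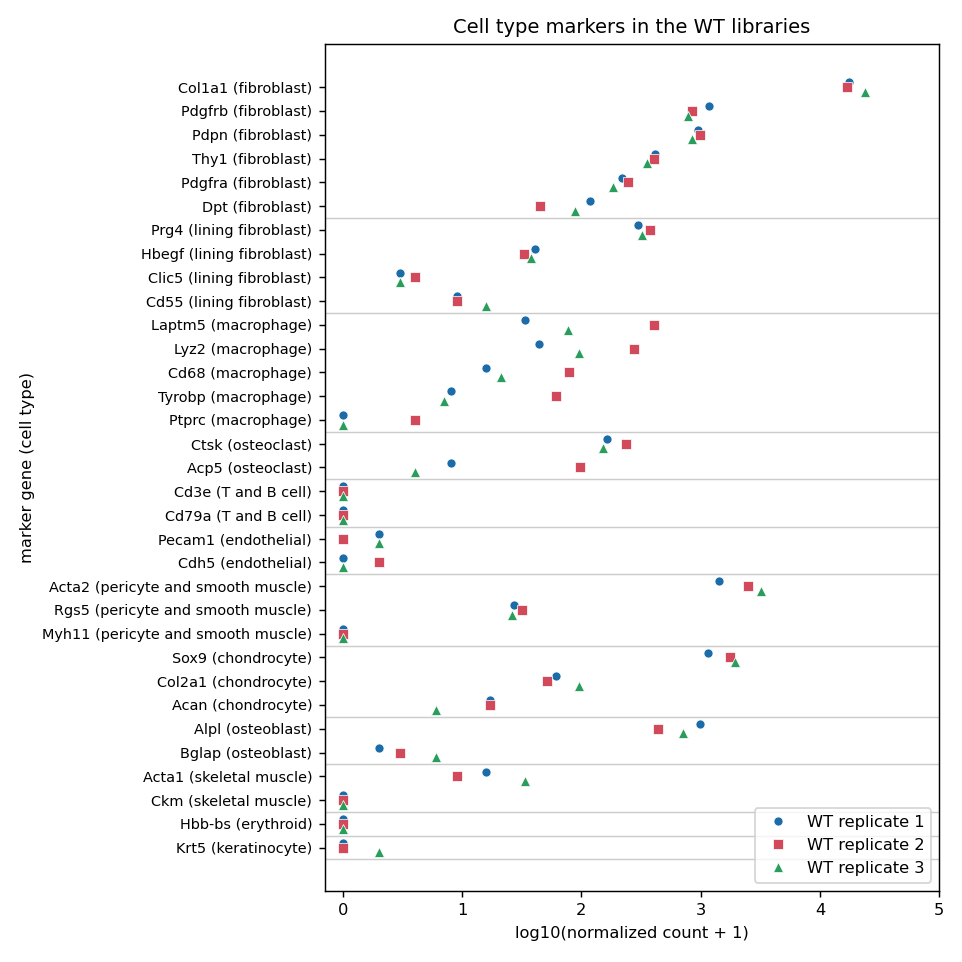
Level of selected markers, as log10(normalized count + 1), in each of the 3 WT libraries, with the cell type in brackets. Col1a1 is the highest gene shown, Cd3e, Cd79a, Myh11, Ckm and Hbb-bs are at 0 in every library, and replicate 2 is the highest of the 3 for Laptm5, Lyz2, Cd68, Tyrobp and Acp5.

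Of 49548 genes in the table, 25092 were above 0 in at least 1 WT library and 17284 in all 3. Above 3 approximate reads in all 3 there were 14400. Reads were spread over many genes. The highest gene held 0.749% of the counts on average, the 10 highest held 7.17%, 7.12% and 6.05% of replicates 1 to 3, and 541 genes held 50%. A mean of at least 1000 was reached by 818 genes and a mean of at least 10000 by 35. Protein-coding genes held 83.2% ± 0.576 of the counts and processed pseudogenes 8.92% ± 0.79.

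Features of the table bear on the ranking. First, neighbouring genes often held the same values. In 826 pairs of genes with a mean of at least 10, both genes lay within 1000 bases of each other and differed by at most 5% in each of the 3 libraries. Of these, 654 overlapped and 172 did not, with gaps up to 759 bases, and 352 pairs were on opposite strands. Beyond 1000 bases and up to 100 kb only 1 pair met the same limits. S100a4 and the overlapping Gm42674 stood at 30574 and 30607 normalized counts, Calu and Opn1sw at 20266 and 20250, and Eef2 and 4930442H23Rik at 17283 and 17278. Which gene of such a pair the reads came from cannot be told apart here. Opn1sw is the blue cone pigment of the retina, and its value is uncertain for that reason. The repeated entries, 503 in 446 groups, held 8.56% of the counts. How the counting treated overlaps was not given in the sources used here.

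Second, some of the highest entries have near-identical copies elsewhere. Of the 60 highest genes, 23 have a transcript that matches another gene's over at least 200 bases at 95% identity or more, on either strand. The short stretches below show why such values are uncertain. They are the last 90 coding bases before the stop codon of Rplp1 and of its copy Gm10073, read from the GENCODE transcripts of the mouse, with the differing base in capitals.
Rplp1: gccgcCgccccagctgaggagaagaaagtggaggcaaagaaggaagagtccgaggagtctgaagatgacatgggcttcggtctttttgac
Gm10073: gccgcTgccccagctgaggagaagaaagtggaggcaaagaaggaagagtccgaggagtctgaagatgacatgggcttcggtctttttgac
Rplp1 lies at chr9:61913284-61914542 (mm10) and Gm10073 at chr8:106572966-106573461, both on the minus strand. A read from this stretch differs between them at 1 base in 90. Their levels were 16228, 32896 and 29022 for Rplp1 and 15915, 18999 and 16372 for Gm10073. The next stretch is the end of the coding part of Rplp2, chr7:141447370-141451585 on the plus strand, and a Wdr89 transcript holds the same 90 bases with 0 differences. Wdr89 lies at chr12:75630596-75669537 on the minus strand.
Rplp2: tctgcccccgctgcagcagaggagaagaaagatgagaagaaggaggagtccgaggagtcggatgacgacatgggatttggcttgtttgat
Wdr89 ranked 7th in the table at 24619, 31138 and 24448, above Rplp2 at 5267, 6675 and 6032. The stretch shared by Wdr89 and Rplp2 cannot assign a read to either, so the level of Wdr89 is not read as its own.

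The highest gene was Cd63, the tetraspanin of late endosomes and secreted vesicles, at 40656, 33884 and 24273 normalized counts (32938 ± 8232). A processed pseudogene, Cd63-ps, matches it over 858 bases at 98% identity and stood at 5394. Gas6, the ligand of the TAM receptors, followed at 41450, 28261 and 27507 (32406 ± 7841). Lrrc17, which encodes a secreted leucine-rich repeat protein, stood at 24962, 44613 and 27582 (32386 ± 10670). S100a6, a calcium-binding protein, stood at 26231, 35829 and 33527 (31862 ± 5011). These 4 means lay closer together than any of their SDs, so their order is not resolved. Replicate 1 was the highest library for Gas6 and Cd63, and the lowest for Lrrc17 and S100a6.

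The promoters of these 4 genes are shown because they head the profile. Each is the 250 bases before the RefSeq transcript start (GRCm38.p6, the same assembly as mm10), 5′ to 3′ on the gene's strand, at chr10:128909095-128909344 (Cd63, plus), chr8:13494536-13494785 (Gas6, minus), chr5:21543277-21543526 (Lrrc17, plus) and chr3:90612644-90612893 (S100a6, plus). These transcript starts differ from the gene spans used for the ranking. There Cd63 starts at chr10:128908919, so its window lies inside the gene, and S100a6 starts at chr3:90612882, near the end of its window. Capitals mark the letters of the TATA box (TATAAA), the CCAAT box (CCAAT) and the GC box (GGGCGG), on either strand.
Cd63: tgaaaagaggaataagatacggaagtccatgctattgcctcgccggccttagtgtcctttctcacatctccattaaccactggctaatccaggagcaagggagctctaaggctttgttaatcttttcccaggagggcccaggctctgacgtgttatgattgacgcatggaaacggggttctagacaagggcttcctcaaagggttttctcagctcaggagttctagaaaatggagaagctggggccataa
Gas6: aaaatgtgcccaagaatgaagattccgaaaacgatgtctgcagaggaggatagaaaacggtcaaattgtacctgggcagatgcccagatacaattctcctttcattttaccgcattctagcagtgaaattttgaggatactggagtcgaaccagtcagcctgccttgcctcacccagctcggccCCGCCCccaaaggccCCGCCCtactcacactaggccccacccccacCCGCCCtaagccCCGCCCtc
Lrrc17: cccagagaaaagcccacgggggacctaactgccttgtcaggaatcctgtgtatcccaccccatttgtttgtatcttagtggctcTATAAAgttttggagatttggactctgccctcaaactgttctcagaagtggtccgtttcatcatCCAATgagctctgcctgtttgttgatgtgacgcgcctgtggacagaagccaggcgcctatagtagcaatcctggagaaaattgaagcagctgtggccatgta
S100a6: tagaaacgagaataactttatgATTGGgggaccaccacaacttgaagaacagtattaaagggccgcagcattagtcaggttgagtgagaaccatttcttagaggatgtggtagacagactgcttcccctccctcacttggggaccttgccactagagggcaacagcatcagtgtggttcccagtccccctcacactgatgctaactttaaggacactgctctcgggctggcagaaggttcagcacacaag
The Gas6 window held 4 GC box matches, all as the reverse complement, and none of the other motifs. The Lrrc17 window held 1 TATA box and 1 CCAAT box match, the S100a6 window 1 CCAAT box match on the other strand, and the Cd63 window none of the 3. Over the promoters of 27025 genes, the TATA box letters were in 12.97%, those of the CCAAT box in 34.5% and those of the GC box in 32.9%. Among the 56 of the 100 highest genes with an entry, the shares were 12.5%, 37.5% and 51.8%. A match describes these letters only.

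Igfbp4, which binds insulin-like growth factors, stood at 28065, 23735 and 21589 (24463 ± 3299), and Il1rn, the antagonist of the interleukin-1 receptor, at 30966, 22047 and 17452 (23488 ± 6871). Laptm4a, a lysosomal membrane protein, was even at 19821, 23362 and 21741. Calu, a calcium-binding protein of the endoplasmic reticulum (ER), stood at 23936, 20513 and 16348. The collagen chain genes Col1a1 and Col1a2 were at 17585, 16872 and 23868 (19442 ± 3850) and at 12442, 12940 and 13288 (12890 ± 425). Serpinh1, the collagen chaperone of the ER, stood at 26711, 17515 and 12773, and Lox, which crosslinks collagen, at 11431, 14709 and 23316. Serpinh1 and Lox thus had opposite orders of the libraries. Sparc, a collagen-binding glycoprotein, stood at 20233, 19810 and 15357, and the ER chaperone gene Hspa5 at 19390, 21724 and 14058. Bgn, the small proteoglycan biglycan, was at 11848, 18289 and 19590, Ptrf (cavin of caveolae) at 12315, 16789 and 18795, and Grn (progranulin) at 6917, 14056 and 16355. Replicate 1 was the lowest library for Bgn, Ptrf and Grn.

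The tubulin gene Tuba1a stood at 20316, 17031 and 20270 (19206 ± 1884). The ribosomal protein gene Rpl27a stood at 12787 ± 784, with 11 near-identical copies, Rps23-ps1 at 11861 ± 2660, Gm5148, which spans Rps23-ps1 on the opposite strand, at 11629 ± 2750, and Tpt1-ps3 at 11436 ± 1939. In all, 15 of the 30 had neither a matched neighbour nor a near-identical copy, namely Gas6, Lrrc17, S100a6, Igfbp4, Il1rn, Laptm4a, Col1a1, Serpinh1, Sparc, Hspa5, Bgn, Lox, Ptrf, Col1a2 and Grn. Of the 30, 24 were also among the 30 highest of each library taken alone. The dot plot of the 30 highest genes shows the library values beside the means.

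**Figure D2:**
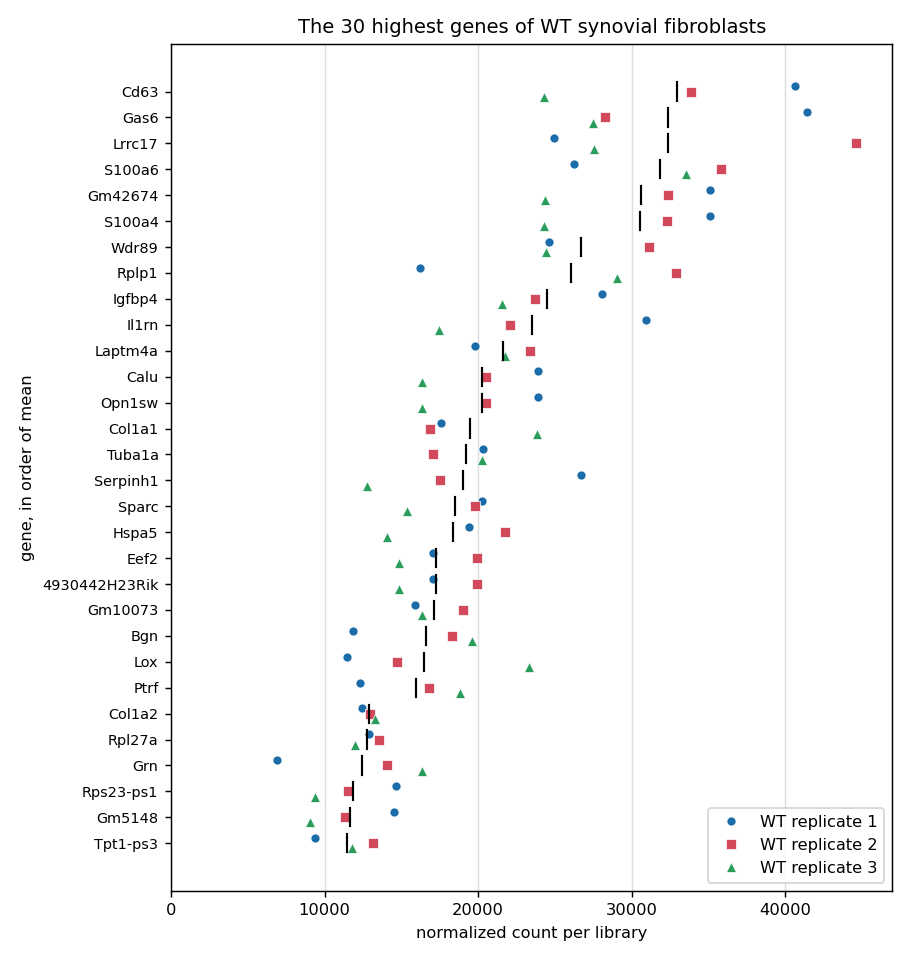
Normalized count of the 30 highest genes in each WT library, ordered by their mean (vertical bar). The first 4 means lie between 31862 and 32938 and their library values overlap.

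The lists of matrix, cytoskeletal, ribosomal and mitochondrial genes were then summed. Together their 447 genes held 15.5%, 16.3% and 17.0% of the counts. Ribosomal and translation genes held 6.83% ± 0.644, matrix genes 5.63% ± 0.244, cytoskeletal genes 2.67% ± 0.12 and nuclear genes of the respiratory chain 1.13% ± 0.0255. Genes of the mitochondrial genome were not analysed here, so the last value covers only the nuclear part.

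Ribosomal protein genes encode the protein part of the ribosome. They held 4.80%, 5.59% and 5.89% in replicates 1, 2 and 3, and the 95% Wilson intervals of the shares, which cover counting error only, were 4.78% to 4.82%, 5.57% to 5.61% and 5.87% to 5.91%. Replicate 1 was lowest. Of 86 genes, 83 had a mean of at least 100, and none of the other 3 reached 10. After Rplp1 and Rpl27a, the highest were Rps9 (7723, 10145 and 12257), Rpsa (9968 ± 1272), the laminin-binding component of the small subunit, and Rps20 (7098, 10371 and 11941). Their pseudogenes named by symbol, 276 entries, held a further 2.92% ± 0.219. Translation factors held 1.40% ± 0.134, led by the elongation factors Eef2 (17283 ± 2542, shared with its neighbour) and Eef1a1 (7934, 11252 and 10210) and by Tpt1 (5054, 7724 and 7099).

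Collagens held 1.13%, 1.07% and 1.30%, and 19 of 44 genes had a mean of at least 100. The fibrillar chains Col1a1 and Col1a2 made up 37.9% and 25.1% of the list, followed by Col3a1 (3514 ± 394), Col5a1 (3395 ± 575) and Col5a2 (2796 ± 475). The chains of the beaded collagen VI stood lower, with Col6a3 at 1302, 1949 and 2457, Col6a1 at 1593, 1556 and 1086, and Col6a2 at 1147, 1409 and 1590. Col8a2 was at 118, 242 and 580, so that replicate 3 was over 2 times each other library and replicate 1 below 50% of each. Collagen processing and crosslinking genes held 1.26% ± 0.0526, and Serpinh1 and Lox made up 34.3% and 29.8% of that sum. P4hb, a subunit of prolyl 4-hydroxylase, stood at 3832 ± 260.

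Matrix glycoproteins held 1.68% ± 0.0964, and 46 of 58 genes had a mean of at least 100. Sparc led the list. Fn1, which encodes fibronectin, was even, at 8124, 7948 and 7872 (CV 1.62%), whereas Thbs1 stood at 9067, 4252 and 5034, and Fbn1, fibrillin of microfibrils, at 1075, 3211 and 2945. Comp stood at 5671 ± 1483, but with the same values as its neighbour Crtc1. Proteoglycans held 0.663%, 0.736% and 0.818%. Bgn alone made up 51.1% of this sum, Fmod (fibromodulin) stood at 5801 ± 1011, and Dcn (decorin) was lower at 536, 684 and 665. Lum (lumican) stood at 284, 990 and 1158, with replicate 1 below 50% of each other library.

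Matrix proteases and inhibitors held 0.787% ± 0.0408, and inhibitors led. Timp2 stood at 7471 ± 1410, Serpine2 at 5698 ± 339, Serpinf1 at 2918 ± 222, Timp3 at 2012 ± 306 and Timp1 at 2563, 1305 and 1402. The lysosomal protease gene Ctsd was at 3856, 5782 and 5774. Of the metalloproteinases, Mmp2 stood at 1196, 1669 and 916, with the same values as Gm45472, Mmp14 at 573, 1117 and 1441, and the collagenase gene Mmp13 at 871, 429 and 384.

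Cytoskeletal genes were close to even between libraries as a sum, at 2.55%, 2.68% and 2.79%. Actins and actin-binding proteins held 1.58% ± 0.0508, with Actb at 7522, 11139 and 10507, Capzb, which caps actin filaments, at 6273 ± 1893, Tmsb4x, which binds free actin, at 5735 ± 509, and Actn1 at 5492 ± 606. Acta2, the actin of smooth muscle and myofibroblasts, stood at 1427, 2510 and 3203. Tubulins held 0.883% ± 0.0573, led by Tuba1a (with 8 near-identical copies) and Tubb5 (5874, 9239 and 9868). Intermediate filaments held 0.166%, 0.219% and 0.245%, and vimentin (Vim), the filament of mesenchymal cells, made up 79.2% of them at 5337, 7882 and 8658. Des stood at 6, 3 and 2 and the epithelial keratin gene Krt8 at 0.

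Among the 4 classes, nuclear genes of the respiratory chain held the most even share, at 1.16%, 1.11% and 1.12%. Of 82 genes 75 had a mean of at least 100. Atp5g3, a subunit of the ATP synthase ring, stood at 7087, 4924 and 4734, Ndufb3 of complex I at 3753 ± 564, Atp5b at 2170 ± 290 and Atp5a1 at 2139 ± 210. Single members spread more than the sum. Cox8a was at 2254, 1269 and 882, and Ndufs6 at 716, 1428 and 1471. Glycolysis genes held 0.235%, 0.324% and 0.249%, led by Aldoa at 1641, 3321 and 2194, and were highest in replicate 2.

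**Figure D3:**
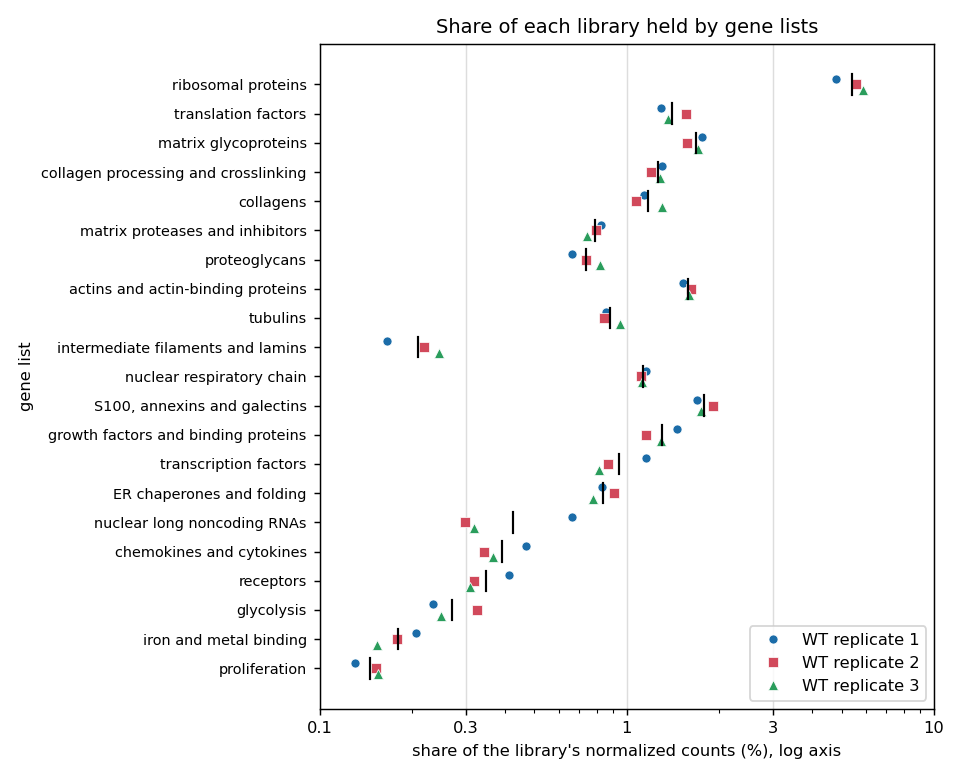
Share of each library's normalized counts held by gene lists, on a log axis, with the mean as a vertical bar. Ribosomal protein genes hold 4.80% to 5.89% and the nuclear respiratory chain 1.11% to 1.16%, while nuclear long noncoding RNAs hold 0.662% in replicate 1 and 0.299% and 0.319% in the others.

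Beyond the structural lists, calcium-binding S100 proteins, annexins and galectins held 1.78% ± 0.108, of which S100a6 and S100a4 were 40.6% and 39.0%. S100a4 holds the same values as Gm42674, and with only Gm42674 kept of that pair, among the other matched neighbours, the list held 1.19%. Anxa2 stood at 5011, 7215 and 7432 and Lgals1 at 3375, 5408 and 5954. Growth factors and their binding proteins held 1.46%, 1.16% and 1.30%. That list leaves out the receptor ligand gene Gas6, given above, which alone held 0.738% of the counts on average. Behind Igfbp4 came the matricellular genes Ctgf (7434, 4389 and 5494) and Cyr61 (7119, 5154 and 3820), Fstl1 (4520 ± 201), Igfbp2 (3637, 2575 and 6407) and the WNT antagonist gene Sfrp2 (2632, 2500 and 4053). ER chaperones held 0.838% ± 0.0662, and Hspa5 made up 49.9% of them.

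Chemokines and cytokines held 0.472%, 0.342% and 0.367%. The list leaves out Il1rn of the interleukin-1 family, given above, whose count alone was above the sum of the list in each library. It also leaves out the chemokine gene Ccl27a, which stood at 5230, 7436 and 12898 and has 5 near-identical copies. With it, an addition made after its values were seen, the shares were 0.591%, 0.508% and 0.6646%, with replicate 3 highest, whereas Il1rn itself was highest in replicate 1. The order of the libraries in this sum thus depends on which genes are listed. Cxcl12, which retains CXCR4+ cells, made up 63.5% of the list without Ccl27a. The neutrophil chemokine genes Cxcl5 (2053, 1718 and 741) and Cxcl1 (1726, 562 and 183) and the monocyte chemokine genes Ccl2 (545, 329 and 207) and Ccl7 (750, 390 and 284) had replicate 1 highest and replicate 3 lowest. Csf1, the growth factor of macrophages, was even at 1385, 1512 and 1205. Il6 was low at 18, 20 and 37, and Csf2 and Ccl11 were at 0. Among receptors, Il4ra stood at 2904, 1030 and 595, Itgb1 at 1442, 1155 and 933, and Il6st, the shared receptor of the interleukin-6 family, at 782, 790 and 891.

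Transcription factors held 1.15%, 0.866% and 0.812%. Id3, an inhibitor of basic helix-loop-helix factors, was the highest on average but at 14739, 4964 and 2431. Atf4 stood at 2778, 3058 and 4272, the AP-1 genes Fosl2 and Junb at 3259, 2278 and 1909 and at 3138, 2265 and 1802, and the limb mesenchyme gene Prrx2 at 1957, 1569 and 1019. Proliferation genes held 0.130%, 0.153% and 0.155%, with Birc5 at 549, 882 and 1084 and Top2a at 110, 171 and 175. Fth1, ferritin heavy chain, stood at 4127 ± 153, with the same values as its neighbour Best1.

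The spread between replicates is given beside what counting alone would give. For genes with a mean of at least 100 the median SD of log2(normalized count + 1) was 0.28, and the median CV was 19.3%. From 2 libraries at a time, the median SD was 0.18 without replicate 1, 0.30 without replicate 2 and 0.23 without replicate 3. The median CV was 35% for means of 10 to 30, 23.8% for 30 to 100, 19.7% for 100 to 300 and 18.7% for 10000 and more. Counting alone would give 21.6%, 12.3%, 7.16% and 0.677%. The CV therefore stopped falling near a mean of 100, and more reads per gene did not go with a smaller spread above it. Across 13363 genes with a mean of at least 10, Spearman's rho was 0.943 between replicates 1 and 2, 0.925 between 1 and 3 and 0.960 between 2 and 3. These are correlations across genes, which are not independent and share their library.

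**Figure D4:**
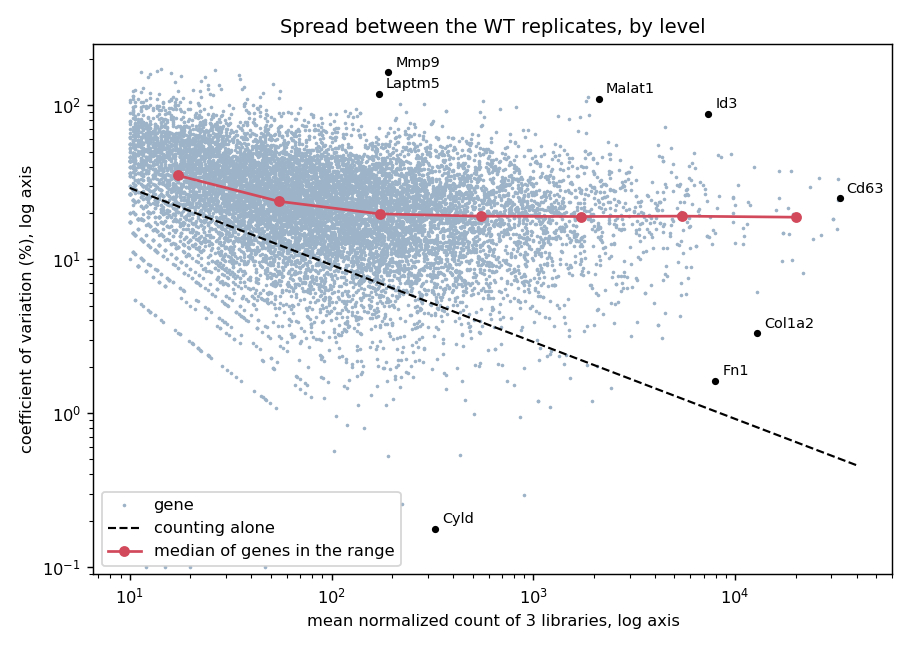
CV of each gene over the 3 WT libraries against its mean normalized count, both on log axes, with the median of genes in each range (red) and the CV that counting alone gives (dashed). The medians level off near 19% while the dashed line goes on falling. Values of 0 are drawn at 0.1%.

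Of the 5929 genes, 1118 had a CV under 10% and 241 over 50%. The smallest was that of Cyld, a deubiquitinase, at 325, 325 and 326 normalized counts, followed by Cisd3 (223, 224 and 224), the peroxiredoxin gene Prdx2 (899, 903 and 898), Dctn3 (190, 191 and 189) and Mrps12 (432, 432 and 436). Golt1b, Dcxr, Pon3, Ergic3 and Cenpt completed the 10 smallest, with CVs of 0.564% to 0.952%. Cyld lies under the counting line in the plot of CV against level.

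The largest CV was that of Mmp9, a gelatinase made by osteoclasts and neutrophils, at 5, 554 and 15. Laptm5, a lysosomal protein of blood cells, followed at 33, 405 and 76. Replicate 2 was the highest library for both, and Laptm5 is itself a member of the macrophage list. The part of such cells in these values was not tested. In the other 8 of the 10 largest, replicate 1 was highest. The nuclear RNA Malat1 stood at 4768, 1043 and 515, and Gm37376, which lies within its span on the other strand, at 4308, 892 and 406. Mir1906-1 and Gm27300, which lie within the imprinted noncoding gene Meg3, were at 4071, 783 and 640 and at 627, 113 and 124, and Meg3 itself at 8248, 2584 and 2653. Rab26 stood at 1257, 203 and 233, Snora64 at 472, 112 and 68, and Cxcl1 at 1726, 562 and 183, with Gm22816, just past its end, at 1414, 494 and 153. The list of nuclear noncoding RNAs held 0.662% of replicate 1 and 0.299% and 0.319% of the others.

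Genes in which 1 library lay more than 2 times above each of the others, with a mean of at least 100, numbered 133 in replicate 1, which is 2.24% of the 5929. They numbered 6 in replicate 2 (0.101%) and 32 in replicate 3 (0.54%). Below 50% of each other library were 102 genes in replicate 1 (1.72%), 6 in replicate 2 (0.101%) and 38 in replicate 3 (0.641%). Replicate 1 thus held most of both kinds. High in replicate 1 were the surface antigen genes Ly6a (3767, 1034 and 877) and Ly6c1 (477, 111 and 111), the complement genes C4b (251, 68 and 64), C1s1 (408, 99 and 122) and C1ra (1370, 509 and 652), the metallothionein gene Mt2 (2602, 809 and 545), and Id3, Meg3, Malat1 and Il4ra with the values above. The complement gene C1rb was instead low in replicate 1 (146, 326 and 385), and C3 was high in replicate 3 (78, 69 and 162). Low in replicate 1 were Apoe (40, 283 and 412), Lpl (301, 1229 and 906), Bmp4 (119, 341 and 527), Lum and Fbn1. The ribosomal copy Rps3a3, also low in replicate 1, stood at 84, 2289 and 2763.

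Transcription factors gave 4 of 58 members high in replicate 1, nuclear noncoding RNAs 2 of 8, chemokines 2 of 8, sublining markers 2 of 6 and matrix glycoproteins 3 of 46, beside 133 of 5929 over all genes. These are few genes, and nothing is read from the shares. Of the matrix glycoproteins, 2 were also low in replicate 1 and 2 high in replicate 3. In replicate 3, Bst2 (151, 169 and 447), Hoxa10 (102, 183 and 406), Nov (289, 323 and 775) and Col8a2 were high, and Xdh (230, 101 and 19) and Nnmt (429, 341 and 85) were low. The 6 genes high in replicate 2 were Mmp9, Laptm5, Lyz2, Eif3j2 and the pair Mcpt8 and Mir6949, which share values, and the 6 low in it were Kank1, Irf9, Acp1, Mettl1, Ap2s1 and Gm12940. Genes high in replicate 1 had a median GC content of 48.2% and those low in it 48.8%, against 47.2% over all 5929. Their median gene span was 10.7 kb and 8.15 kb against 16.6 kb, and 79.0% and 75.5% of them were protein-coding against 88.6%. The part of library quality in these differences was not tested.

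**Figure D5:**
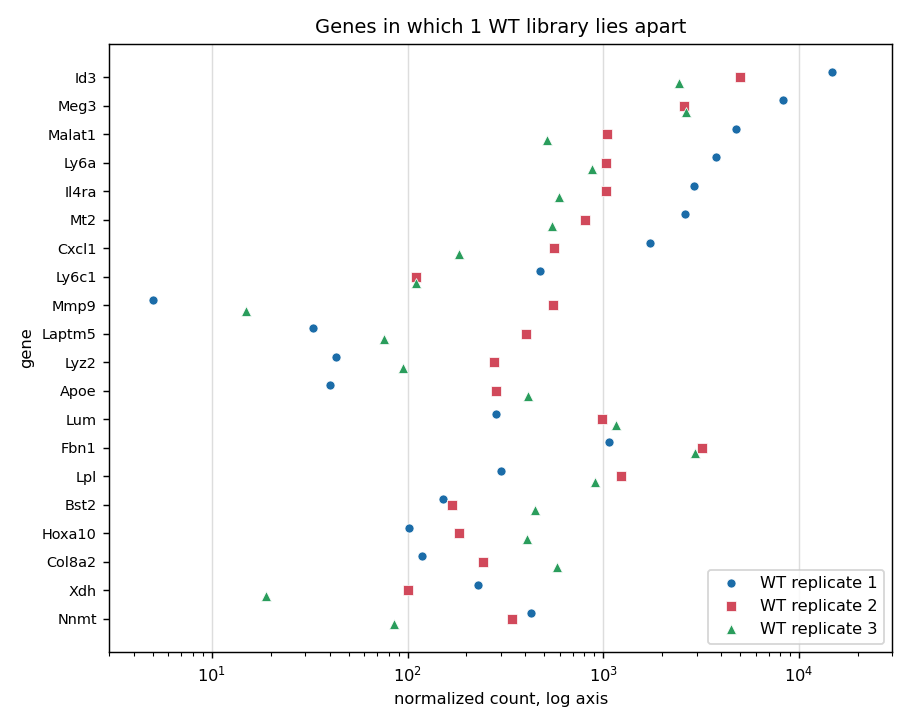
Normalized count in each WT library, on a log axis, of 20 genes in which 1 library lay apart, chosen after their values were seen. Replicate 1 is highest from Id3 to Ly6c1, replicate 2 from Mmp9 to Lyz2, and replicate 1 is lowest from Apoe to Lpl.

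Median CVs of the lists lay on either side of the 19.3% of all genes with a mean of at least 100. Proteoglycans (15.4%), fibroblast markers (16.1%), translation factors (16.4%) and ribosomal proteins (16.6%) were below it. Growth factors (31.1%), nuclear noncoding RNAs (33.6%) and chemokines (46.4%) were above it, over 27, 8 and 8 genes. As a check of the libraries, Xist stood at 501, 291 and 560 normalized counts, Kdm5d and Eif2s3y at 0, Ddx3y at 0, 0 and 6, and Uty at 7, 8 and 4. The labels give no sex.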

How the data were processed

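Total RNA of cultured WT SFs was measured in 3 libraries (QuantSeq 3′ mRNA kit, Ion Proton). According to the methods, the authors mapped reads to mm10 with TopHat2, mapped the remainder with Bowtie2, counted reads per gene with GenomicRanges, removed genes at 0 and normalized the counts, all through metaseqR, versions not given in the sources used here. The values used are a score, namely read counts which the authors normalized. From the spacing of low values they were read as scaled with 1 factor for each library and then rounded, which the methods do not state. A GC fraction per gene was deposited too. Fold changes and p-values in the deposited tables, other groups and 3 WT columns of another normalization were not used.

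From these values, means, SDs, CVs and shares of the library total were computed in Python 3.11.15 with numpy 2.4.6, pandas 2.3.3 and scipy 1.17.1. The reads behind a value were estimated from the spacing of low values, an estimate tested on simulated data. For replicate 3 another value of the spacing, close to the one used, was as good. Spread on the log2 scale used a pseudocount of 1. Copies were sought with BLAST 2.17.0 among GENCODE transcripts. Named genes were the 30 highest by mean, the highest of each list (up to 5), markers at 0, and the 10 largest and 10 smallest CVs with a mean of at least 100. Further genes, among them those in which 1 library lay apart, were named after their values were seen. The members and lists were chosen with earlier results of these data known. Depth was about 4521856 to 6486166 reads per library, and intervals cover counting error only. Alternatives changed the denominator, the ranking, the pseudocount, the filter and the scaling, or left out each replicate. Some items are not reported here.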

Additional observations from a re-analysis of the deposited data

How the results depend on the processing

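With protein-coding genes as the denominator, the shares were 6.77% for matrix, 3.22% for cytoskeletal, 8.22% for ribosomal and 1.36% for mitochondrial genes, against 5.63%, 2.67%, 6.83% and 1.13%. With 1 entry for neighbouring genes that hold the same values, an alternative chosen after seeing the data, they were 6.12%, 2.86%, 7.32% and 1.197%. The coding denominator is smaller by construction, and the other alternative also drops members of the lists. With their pseudogenes, ribosomal protein genes held 8.35% in place of 5.43%. The median SD on the log2 scale was 0.28. It was 0.57 over all genes above 0, and 0.18 to 0.30 when 1 library was left out, the lowest being without replicate 1. With a mean of at least 10, the genes in which 1 library was over 2 times each other numbered 429, 85 and 251 in replicates 1, 2 and 3, against 133, 6 and 32. Leaving out each replicate gave shares of 5.52% to 5.76% for matrix, 2.62% to 2.74% for cytoskeletal, 6.62% to 7.20% for ribosomal and 1.12% to 1.14% for mitochondrial genes, and kept 28 to 29 of the 30 highest genes. Of 40 lists, 29 moved by more than 1 SD with the coding denominator and 11 with 1 entry for matched neighbours. No paired analysis was possible because only 1 group was used. Denominators without the mitochondrial genome were not run, since the table used here holds none of its genes. Genes under about 3 reads cannot be told from 0 at this depth, and with 3 libraries the SDs themselves are rough.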
